A study of Homo sapiens with 4 samples.

Results

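Cells given both QTP and radiation were compared with cells that received vehicle and no radiation. The comparison took every cell of the library labelled Drug_Radiation, called the combination here, and of the library labelled Control, where under 20% of the UMIs came from mitochondrially encoded genes. A UMI is a molecular tag that counts each captured RNA molecule once. This gave 6990 combination cells and 3183 Control cells, or 10173 of the 16400 cells kept in the series. The samples are MSTO-211H, an established human mesothelioma line whose genotype is labelled WT, kept as floating cells in serum-free RPMI medium with a neural supplement, EGF, bFGF and heparin. The series title describes such cultures as mesothelioma-initiating cells. The combination received 10 µM QTP, a compound that the title places under dopamine receptor inhibition, and 4 Gy of radiation the next day. The Radiation library had the 4 Gy without QTP and the Drug library the QTP without radiation, and all 4 libraries were collected 48 h after the irradiation. Per the protocol in the labels, cells were pooled before capture, and each group is 1 library of 1 line.

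Ionizing radiation breaks DNA and activates p53, a transcription factor whose targets include the cell cycle inhibitor p21 (CDKN1A) and the secreted stress factor GDF15. Cells held by p21 stop making the proteins of DNA replication and mitosis. Sterol genes respond to the cholesterol content of the endoplasmic reticulum through SREBP proteins, and amino acid and stress genes respond to ATF4 in the integrated stress response.

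Depth separated the libraries. Combination cells had a median of 18024.5 UMIs and 3954 genes per cell, and Control cells 2318 UMIs and 920 genes. The shallowest combination cell had 6244 UMIs and the shallowest Control cell 1009. Cells of 6500 to 15000 UMIs, the range where both libraries held cells, were 2533 of the combination (36.2%) and 173 of Control (5.44%). No barcode was found in more than 1 library. With 1 library per group there was no test and no replicate check, and every interval below is a 95% interval for counting error only. Treatment, depth and library preparation cannot be told apart by this design. Markers of blood cells summed to 0.671 CPM in Control and 0.374 CPM in the combination, and those of endothelium to 1.12 and 1.05 CPM. CD68, a lysosomal glycoprotein of macrophages and other cells and the only one of 14 genes in a wider blood cell list to reach 5 CPM, had 16.2 CPM in Control and 39.3 CPM in the combination. Of the 10 mesothelial markers, the keratins KRT8 and KRT18 carried nearly all UMIs, MSLN had 8.27 CPM in Control and 14.05 CPM in the combination, WT1 had 1.12 and 1.89 CPM, and UPK3B had no UMI in Control.

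Levels below are in CPM: the UMIs of a gene summed over the cells of a library, scaled so that the nuclear-encoded genes of the library sum to 1000000. A difference is the log2 ratio of the combination to Control after adding 1 CPM to each level, and intervals of ratios leave out the added CPM. Of 5243 genes with at least 20 CPM in either library, 281 were at least 2-fold higher in the combination (5.36%) and 127 at least 2-fold lower (2.42%). The median ratio of these genes was 0.33, so the typical gene was above Control. Higher genes made up 68.9% of both counts, but 39.9% when scaled by the typical gene with TMM, which left 101 higher and 152 lower. TMM shifted the log2 ratios down by about 0.22, so lists are given relative to the median of all genes. The 2 directions behaved differently when depth was brought closer. Among the 127 lower genes, 113 were also 2-fold lower with each cell thinned to 1000 UMIs and in cells of 6500 to 15000 UMIs. Among the 281 higher genes, 58 stayed 2-fold in both. In the cells of that range 21.4% of the higher genes and 90.6% of the lower ones still reached 2-fold. MSH3, a mismatch repair gene, was the only one with opposite signs over these settings, at -1.14 over all cells and 0.29 in the range. That range holds 173 Control cells, with a median of 7775 UMIs against 11462 in the combination, so depth still differed within it, and it was chosen after its depths had been seen. Selecting anew within the range, from 5458 genes, put 223 in the higher set and 151 in the lower set. The median ratio of all genes was 0.10 there, against 0.33 over all cells. This shift takes ratios away from the higher cutoff and toward the lower one, and the shares of 21.4% and 90.6% include it.

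**Figure D1:**
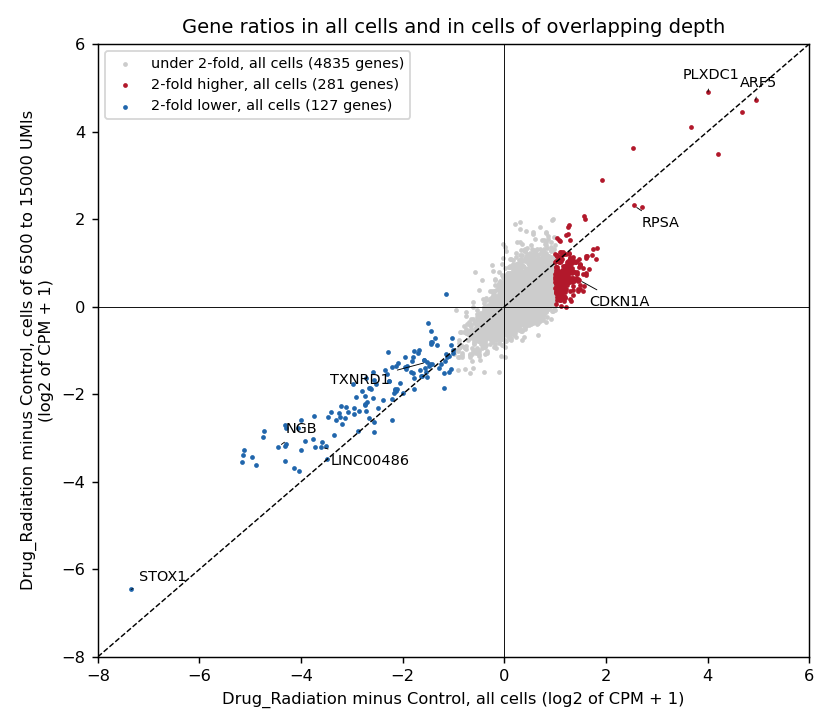
Each point is 1 of the 5243 genes with at least 20 CPM, with its log2 ratio of the combination to Control over all cells on the x axis and in cells of 6500 to 15000 UMIs on the y axis, and the dashed line marks equal values. The 281 higher genes lie mostly below the line, and the 127 lower genes lie mostly above it but are negative on both axes with 1 exception.

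The single treatments showed how the extreme genes were ordered. Control was the lowest of the 4 libraries for 267 of the 281 higher genes, against 3192 of all 5243, and the highest for 119 of the 127 lower genes, against 444 of all. The combination was the highest library for 120 of the higher genes, against 961 of all 5243, and the lowest for 84 of the lower ones, against 644 of all. Its level lay within 1.5-fold of that in the Drug library for 95.02% of the higher and 91.3% of the lower genes, both under the 96.9% of all genes. It lay within 1.5-fold of Radiation for 74.7% of the higher and 6.30% of the lower genes, against 89.2% of all. These counts follow in part from the choice of genes by the contrast with Control, which all such comparisons share.

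Targets of p53 were higher in the combination as a group. Of 30 targets with at least 5 CPM, 26 lay above the median of all 10227 such genes. Of the 22 with at least 20 CPM, 4 were 2-fold higher (against 5.36% of all genes counted) and none was 2-fold lower. Their median ratio was 0.61, against 0.33 for all genes, which makes a relative median of 0.28. The combination had the highest level of the 4 libraries for 16 of the 30, and for 961 of all 5243 genes with at least 20 CPM. Summed over the list, levels were 3297 CPM in Control, 4135 after radiation, 3707 after QTP and 4480 in the combination.

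GDF15, a secreted stress cytokine, stood at 128 CPM in Control, 266 after radiation, 268 after QTP and 389 in the combination, a ratio of 1.60 (1.52 to 1.69). CDKN1A stood at 172, 393, 359 and 478 CPM in the same order, a ratio of 1.47 (1.40 to 1.55). Both genes were thus above either single treatment in the combination, and the single treatments were close to each other. The death receptor TNFRSF10B had a ratio of 1.07, the kinase PLK3 1.23, and MDM2, the ligase that degrades p53, 0.86 (0.75 to 0.999). RPS27L had -0.05 and the stress sensor SESN1 -0.10. In cells of 6500 to 15000 UMIs the ratio was 1.10 for GDF15 and 0.61 for CDKN1A, and the relative median of the list was 0.10. Within Control, CDKN1A went from 101 CPM in cells of 1000 to 2000 UMIs to 270 CPM in cells of 6500 to 15000 UMIs, and in the combination from 391 CPM below 10000 UMIs to 503 CPM above 25000 UMIs.

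The share of cells with CDKN1A RNA was compared after thinning each cell to 1000 UMIs. A CDKN1A UMI was then found in 382 of 3183 Control cells (10.9 to 13.2%) and in 2378 of 6990 combination cells, or 34.0% (32.9 to 35.1%). Free RNA in droplets can add to such shares, and in a single line there is no cell type lacking the gene to measure it in. Among cells rich in replication or mitosis transcripts, defined below, the share was 11.4% in Control (6.36 to 18.4%) and 35.2% in the combination (26.9 to 44.1%). CDKN1A RNA was therefore found at about the same share in those cells as in the rest of the same library, which had 12.03% (10.9 to 13.2%) and 34.0% (32.9 to 35.1%). CDKN1A is on chromosome 6, from 36676460 to 36687339 of GRCh38.

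Genes of G2 and mitosis were lower in the combination. Of 48 with at least 5 CPM, 46 had a ratio under the median of all. Of the 20 with at least 20 CPM, 3 were 2-fold lower, against 2.42% of all genes counted, and none was 2-fold higher. The median ratio was -0.51 and the relative median -0.85. In cells of 6500 to 15000 UMIs the relative median was -1.17, further from 0. That range holds 173 Control cells. Thinned to 6000 UMIs, 2.89% of them were in the S or G2/M class defined below, so few such Control cells entered this value. The combination had the lowest level of the 4 libraries for 29 of the 48 genes, and for 644 of all 5243 genes with at least 20 CPM. Summed levels were 1892 CPM in Control, 1498 after radiation, 2170 after QTP and 1390 in the combination, so Drug was the highest and the combination the lowest.

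HMGB2, a chromatin protein of proliferating cells, had 160 CPM in Control, 122 after radiation, 143 after QTP and 70.0 in the combination, a ratio of -1.18 (-1.27 to -1.11). The centromere protein CENPW had 81.7, 44.2, 62.7 and 36.5 CPM, a ratio of -1.14 (-1.27 to -1.05). MAD2L1, of the spindle checkpoint, had 82.8, 60.6, 68.3 and 38.5 CPM, a ratio of -1.09 (-1.22 to -0.99). All of these were lowest in the combination, and the other libraries lay between it and Control. TOP2A, which untangles chromosomes, had a ratio of -0.92 and the proliferation marker MKI67 -0.81, and in cells of 6500 to 15000 UMIs they had -1.44 and -1.19. The kinase AURKB was near 0 at 0.01 over all cells but -1.14 in that range, and PLK1 had -0.15 and -1.45. These range values rest on the same 173 Control cells. The exceptions were the tubulin TUBB4B at 0.53 and the phosphatase CDC25B at 0.58, which had -0.16 and -0.00 in the same range. Depth moved with this list too. In Control its summed level was 1289 CPM in cells of 1000 to 2000 UMIs, 2624 CPM at 4000 to 6500 UMIs and 1906 CPM at 6500 to 15000 UMIs, and in the combination it ran from 999 to 1521 CPM.

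Many promoters of mitotic genes carry a CHR element, written here as TTTGAA, and CCAAT boxes, written CCAAT. In the textbook model the CHR element mediates repression below p53 and p21. RefSeq promoter windows of GRCh38.p14 matched 42 of the 48 genes, and the 250 bases before each start were searched on both strands. TTTGAA was found in 21 of the 42, against 13.6% of all 27305 promoters and 8.04% of those of the 4301 measured genes with a window. CCAAT was found in 32 of the 42 (76.2%), against 33.0% of all and 36.3% of measured genes, and 19 held both (45.2%, against 4.85% and 3.23%). The stretches below show TOP2A and MKI67, lower by under 2-fold, with both elements, and CENPW, 2-fold lower, with CCAAT boxes alone. MAD2L1, also 2-fold lower, held a CCAAT box and no TTTGAA. TUBB4B, the exception, also holds both elements. Capitals mark matches on either strand, and in MKI67 a TTTGAA overlaps an ATTGG, which is CCAAT read on the other strand. A match is a description of these letters and not a measured binding site. No ratio entered these shares, which describe the list, and a part of these elements in the difference was not tested.
TOP2A (chr17:40417935-40418146, minus strand): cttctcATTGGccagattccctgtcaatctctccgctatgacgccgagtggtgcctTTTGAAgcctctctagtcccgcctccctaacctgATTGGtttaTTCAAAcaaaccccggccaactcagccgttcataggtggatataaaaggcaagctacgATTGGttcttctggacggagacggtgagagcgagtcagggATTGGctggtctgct
MKI67 (chr10:128126433-128126531, minus strand): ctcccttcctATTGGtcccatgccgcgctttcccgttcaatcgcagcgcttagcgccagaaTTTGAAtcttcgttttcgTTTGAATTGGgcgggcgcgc
CENPW (chr6:126339881-126339927, plus strand): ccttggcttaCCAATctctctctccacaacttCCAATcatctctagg
TUBB4B (chr9:137241037-137241198, plus strand): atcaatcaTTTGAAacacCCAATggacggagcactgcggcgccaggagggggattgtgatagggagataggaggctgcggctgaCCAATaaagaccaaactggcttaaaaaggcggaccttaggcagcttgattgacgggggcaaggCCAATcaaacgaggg

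Cells were also classed one by one. A cell counted as S or G2/M when genes of the DNA replication list or of the G2 and mitosis list made up at least 1% of its UMIs after thinning to 1000. By this rule 123 of 3183 Control cells qualified, 3.86% (3.22 to 4.59%), and 128 of 6990 combination cells, 1.83% (1.53 to 2.17%). Radiation had 3.18% and Drug 5.50%, so the combination was the lowest library. The share was lower in the combination at each threshold and depth tried, but some of these settings rest on few cells. At a threshold of 2% it was 0.126% in Control and 0.0572% in the combination. The range of 6500 to 15000 UMIs holds 173 Control cells, of which 2.89% qualified when thinned to 6000. No interval is given for these settings. The class is a range of a score and not a cell type, and at a threshold of 0.5% it held 14.6% of Control and 7.997% of combination cells.

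**Figure D2:**
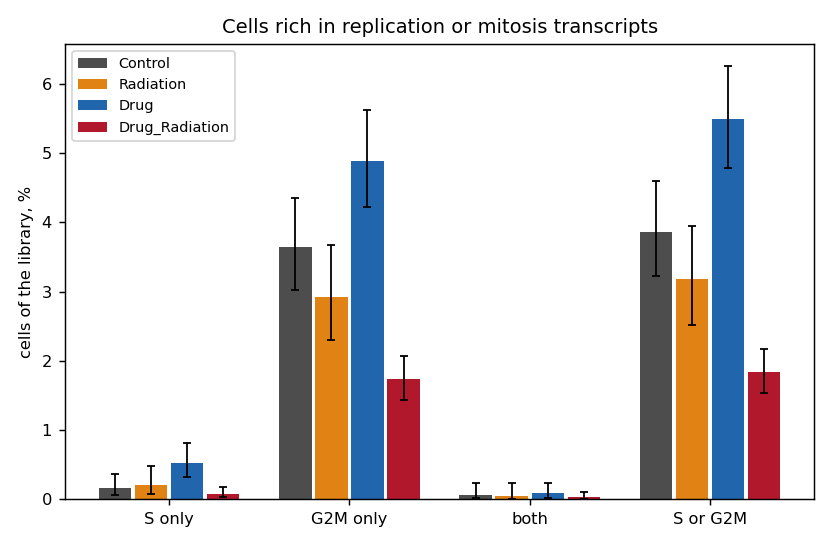
Bars give the share of cells in each of the 4 libraries whose UMIs, after thinning to 1000 per cell, were at least 1% replication genes (S only), at least 1% G2 and mitosis genes (G2M only), both, or either, with exact 95% binomial intervals. The combination is lowest for G2M only and for either class, at 1.73% and 1.83%.

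DNA replication genes sat below the typical gene. Of 41 members, 35 lay below the median, with a median ratio of -0.04 and a relative median of -0.37. PCLAF, which binds the clamp PCNA, had 152 CPM in Control, 90.1 after radiation, 141 after QTP and 67.1 in the combination, a ratio of -1.17 (-1.26 to -1.10). POLE2, a subunit of polymerase epsilon, had 65.5, 48.3, 14.7 and 10.8 CPM, a ratio of -2.49. For PCLAF both irradiated libraries were low, whereas for POLE2 both QTP libraries were low. The helicase subunit MCM3 was the exception at 1.03, and it had 0.22 in cells of 6500 to 15000 UMIs. Genes of double-strand break and crosslink repair had a median ratio of 0.15 and a relative median of -0.18. Of 22 members, 14 were above Control, as were 8283 of all 10227 genes with at least 5 CPM. They summed to 619 CPM in Control and 757 CPM in the combination. RAD51AP1 had -1.18 and BRCA2 -0.95, and the Ku subunit XRCC6 had 0.97. Replication-type histones had only 4 members with at least 5 CPM and were not summarized.

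Genes of cholesterol synthesis and uptake were higher in the combination. All 26 measured had a higher level than in Control, as did 8283 of all 10227 genes with at least 5 CPM. Of the 26, 24 lay above the median of all genes. Of the 22 with at least 20 CPM, 6 were 2-fold higher, against 5.36% of all genes counted. The relative median was 0.31 over all cells and 0.34 in cells of 6500 to 15000 UMIs. Summed levels were 1452 CPM in Control, 1502 after radiation, 3059 after QTP and 2336 in the combination, so the combination stood below Drug. DHCR7, the last enzyme of cholesterol synthesis, had 32.0 CPM in Control, 53.9 after radiation, 151 after QTP and 116 in the combination, a ratio of 1.82 (1.69 to 2.03). HMGCS1, which makes the precursor HMG-CoA, had 32.6, 36.9, 106 and 77.2 CPM, a ratio of 1.22 (1.07 to 1.41). In both genes the libraries with QTP lay above those without it. The synthesis enzymes LSS at 1.55 and MVD at 1.49 were also 2-fold higher, while IDI1 had 0.28 and TM7SF2 0.18.

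Fatty acid genes followed the same pattern. Of 17 members, 15 lay above the median. Of the 14 with at least 20 CPM, 4 were 2-fold higher, against 5.36% of all genes counted. The relative median of the list was 0.47 over all cells and 0.58 in cells of 6500 to 15000 UMIs. ACLY, which makes cytosolic acetyl-CoA, had 47.5 CPM in Control, 77.1 after radiation, 153 after QTP and 130 in the combination, a ratio of 1.44 (1.32 to 1.60). The desaturase SCD had 101, 90.8, 299 and 247 CPM, a ratio of 1.28 (1.197 to 1.39). FASN, the fatty acid synthase, had 30.3, 19.96, 39.2 and 60.9 CPM, a ratio of 0.98, and unlike ACLY and SCD it was highest in the combination. These lists differed little with depth: cholesterol genes ran from 1308 to 1501 CPM over 4 depth ranges of Control and from 2221 to 2408 CPM over 4 ranges of the combination. The ranges of the 2 libraries did not overlap for fatty acid genes either, at 554 to 670 CPM and 1143 to 1360 CPM. SREBP sites of the form TCACNCCAC were found in 1 of 20 matched promoters of the cholesterol list and in 0 of 16 of the fatty acid list, against 0.875% of all promoters.

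**Figure D3:**
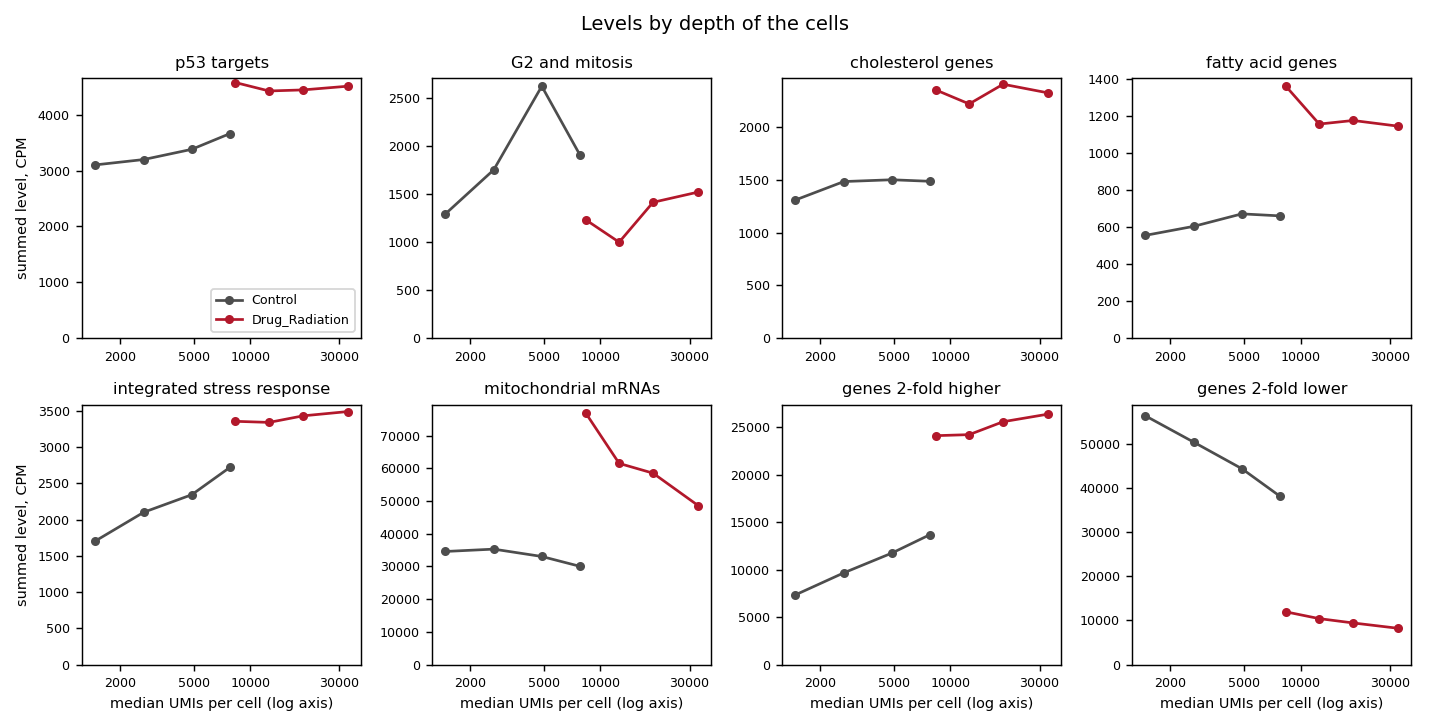
Each panel plots the summed level of a gene list in CPM against the median UMIs per cell (log axis) of 4 depth ranges, for Control and the combination. Levels of p53 target, cholesterol, fatty acid, integrated stress response and mitochondrial transcripts separate the libraries at every depth. The integrated stress response also climbs within Control from 1701 to 2721 CPM. The panels of the genes 2-fold higher and lower show genes chosen by this contrast.

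Stress response genes were higher in the combination, and more of their difference moved with depth. The integrated stress response and amino acid list had 34 members, of which 27 lay above the median, with a relative median of 0.42. Of the 27 members with at least 20 CPM, 7 were 2-fold higher, against 5.36% of all genes counted. In cells of 6500 to 15000 UMIs the relative median was 0.17. STC2, a secreted glycoprotein, had 85.2 CPM in Control, 213 after radiation, 220 after QTP and 234 in the combination, a ratio of 1.44 (1.35 to 1.56). ATF4, the transcription factor of this response, had 178, 319, 377 and 323 CPM, a ratio of 0.86 (0.79 to 0.94), and 0.28 in the overlapping range. For both genes Control alone was low and the 3 treated libraries were alike. DDIT3 (CHOP) had 0.85 and TRIB3 0.12. AARS1, the alanyl-tRNA synthetase, went the other way with 228 CPM in Control and 123 CPM in the combination, a ratio of -0.88 (-0.95 to -0.82), and -0.93 in the overlapping range. The AARS1 promoter was the only 1 of 30 matched promoters of the list to hold TGATGCAA, the form searched for an ATF4 site. That is 3.33%, against 0.820% of all promoters and 0.395% of those of measured genes. Within Control the summed list went from 1701 CPM in cells of 1000 to 2000 UMIs to 2721 CPM in cells of 6500 to 15000 UMIs, and it was 3340 to 3491 CPM over the ranges of the combination. The part of depth in this difference was not tested.

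Genes of folding and degradation in the endoplasmic reticulum had a relative median of 0.17, and -0.03 in the overlapping range. The exception was SYVN1, the ubiquitin ligase of that membrane, with 7.93 CPM in Control, 16.8 after radiation, 35.3 after QTP and 57.1 in the combination. Its ratio was 2.70 (2.51 to 3.20), and 2.27 in the overlapping range. Its level was thus highest in the combination and graded over the libraries. The lectin OS9, of the same pathway, had 1.49, and the chaperone HSPA5 had 0.78, with 0.50 and 0.33 in the overlapping range.

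Hypoxia and glycolysis genes had 40 members, of which 31 lay above the median. Of the 33 with at least 20 CPM, 10 were 2-fold higher, against 5.36% of all genes counted. The relative median of the list was 0.32, and 0.29 in the overlapping range. The signalling peptide ADM had 1.76, the lipase inhibitor ANGPTL4 1.72, the phosphofructokinase PFKP 1.61 and the pyruvate kinase PKM 1.199. ADM and ANGPTL4 were low in Control and moved with depth there. From cells of 1000 to 2000 UMIs to cells of 4000 to 6500 UMIs, ADM went from 0.560 to 6.08 CPM and ANGPTL4 from 5.04 to 7.38 CPM. NGB, or neuroglobin, a member of the same list, was lower by far and is described below. The core ACGTG was found in 17 of 36 matched promoters of this list (47.2%), against 18.7% of all promoters and 25.9% of those of measured genes.

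Transcripts of the mitochondrial genome were higher in the combination, while the nuclear genes of the respiratory chain were at about the Control level. All 13 mitochondrially encoded mRNAs were higher in the combination than in Control, and for all 13 the combination had the highest level of the 4 libraries. Summed, they had 33696 CPM in Control, 36827 after radiation, 42521 after QTP and 54801 in the combination. The relative median was 0.27 over all cells and 0.86 in cells of 6500 to 15000 UMIs. Over the depth ranges, Control had 30028 to 35292 CPM and the combination 48556 to 76989 CPM, highest in its shallowest cells. MT-CO2, a subunit of cytochrome oxidase, had 1433 CPM in Control, 1552 after radiation, 5269 after QTP and 6377 in the combination, a ratio of 2.15 (2.13 to 2.18). MT-ND4L had a ratio of 1.45, MT-CO3 0.80, MT-ND4 0.32 and MT-CYB 0.23. The transcripts of the 1 mitochondrial genome thus ranged widely in their difference. The 76 nuclear-encoded subunits had a median ratio of 0.04, with 43 above Control, and they summed to 28488 CPM in Control and 28512 CPM in the combination. Relative to all genes their median was -0.29, with 65 under that of all. NDUFB6 of complex I had -0.85 and CYC1 of complex III -0.83.

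Cytosolic ribosomal proteins were a smaller share of RNA in the combination over all cells, but close to Control at overlapping depth. In cells thinned to 1000 UMIs they made up a mean of 37.6% of UMIs in Control, 32.4% after radiation, 27.4% after QTP and 30.5% in the combination. Of the 79 genes, 74 had a ratio under that median, with a relative median of -0.56. Within Control their level went from 419004 CPM in cells of 1000 to 2000 UMIs to 336606 CPM in cells of 6500 to 15000 UMIs. In the combination it was 323092 CPM in cells of 6000 to 10000 UMIs and 336582 CPM at 10000 to 15000 UMIs. In cells of 6500 to 15000 UMIs the median ratio of the list was -0.06 and the relative median -0.24. Leaving these genes out of the total, an alternative chosen after seeing the data, gave 177 genes 2-fold higher in place of 281 and 136 lower in place of 127.

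RPSA, which encodes a protein of the small subunit, was the exception with 401 CPM in Control, 525 after radiation, 2248 after QTP and 2349 in the combination, a ratio of 2.55 (2.502 to 2.60). RPSAP58, a named copy of RPSA, had 2644, 2322, 483 and 461 CPM, in the opposite order. Their sum was 3045 CPM in Control, 2848 after radiation, 2731 after QTP and 2811 in the combination. The sum differed by -0.12 on the log2 scale, so only the division of reads between gene and copy differed strongly, and the single values are uncertain. HNRNPA1L2, a near copy of HNRNPA1, had 10.2 CPM in Control and 63.9 CPM in the combination, a ratio of 2.54, while the sum of both genes was 1402 and 1405 CPM. DDTL, a near copy of DDT, had 1.79 and 50.1 CPM, and the sum of both was 224 and 345 CPM.

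Lysosomal genes had 47 members, 40 of them above the median. Of the 37 with at least 20 CPM, 7 were 2-fold higher, against 5.36% of all genes counted. The relative median of the list was 0.34. In the overlapping range it was 0.13, and within Control the summed level went from 4316 to 6610 CPM over the depth ranges. The sulfatase ARSA had 1.496 and the protease CTSD 1.37, with 0.94 and 0.57 in the overlapping range, and NPC1, which exports cholesterol from lysosomes, had 1.10 and 1.24. The element TCACGTGA, bound by TFEB proteins, was found in 5 of 30 matched promoters (CD164, CTSA, GAA, LAMP1 and MCOLN1), or 16.7%, against 0.890% of all promoters and 1.88% of those of measured genes. The vacuolar proton pump had a relative median of 0.37 and 14 of 18 members above the median, but 0.03 in the overlapping range. Its subunit ATP6V0D2 had 136 CPM in Control, 57.1 after radiation, 3.70 after QTP and 2.82 in the combination, a ratio of -5.17 (-5.76 to -5.43, an interval without the added CPM). Autophagy receptors and the LC3 family had 0.18.

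Genes of the extracellular matrix and of mesenchymal cells had 40 members, with 32 above the median. Of the 29 with at least 20 CPM, 6 were 2-fold higher, against 5.36% of all genes counted. The relative median of the list was 0.22, and 0.14 in the overlapping range. The combination had the highest level for 26 of the 40, and for 961 of all 5243 genes with at least 20 CPM. The summed level, however, was highest in Radiation. It was 6172 CPM in Control, 9005 after radiation, 7538 after QTP and 8133 in the combination. MMP2, a gelatinase, had 19.0 CPM in Control, 23.4 after radiation, 34.0 after QTP and 49.0 in the combination, a ratio of 1.32 (1.15 to 1.59). COL6A1, a collagen chain, had 79.5, 151, 144 and 191 CPM, a ratio of 1.26 (1.16 to 1.38). Both were highest in the combination, and in the overlapping range they had 0.89 and 1.04. TGFBI had 1.19 and the crosslinking enzyme LOXL2 1.15, whereas the transcription factor TWIST1 had -0.12. VIM, the mesenchymal filament, had 0.08 and the keratin KRT18 -0.04.

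The antioxidant list of NRF2 targets was mostly higher, with strong exceptions. Of 22 members, 20 were above Control, as were 8283 of all 10227 genes with at least 5 CPM. Of the 22, 16 lay above the median of all genes. Of the 15 with at least 20 CPM, 5 were 2-fold higher and 1 was 2-fold lower, against 5.36% and 2.42% of all genes counted. PGD, which makes NADPH in the pentose phosphate pathway, had a ratio of 1.24. TXNRD1, thioredoxin reductase, had 1767 CPM in Control, 1609 after radiation, 617 after QTP and 613 in the combination, a ratio of -1.52 (-1.55 to -1.502), and its partner TXN had 2318 and 1555 CPM, a ratio of -0.58. HMOX1 had 1.21 over all cells and 0.00 in the overlapping range. The list's relative median was 0.14, and -0.02 in the overlapping range.

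The remaining lists ranged from above to below the typical gene. The relative median was 0.30 for tubulins and actins, 0.21 for inflammatory cytokines and chemokines, 0.17 for stem and tumour-initiating cell markers, 0.14 for immediate early genes, 0.09 for D cyclins and cyclin kinase inhibitors and 0.08 for both the BCL2 family and the EGF and FGF list. It was 0.07 for YAP targets, 0.05 for MHC class I presentation, 0.03 for cytosolic heat shock proteins and 0.01 for interferon genes. It was -0.07 for mesothelial and epithelial genes, -0.10 for nuclear long noncoding RNAs and -0.20 for proteasome subunits. In the overlapping range 8 of the 31 lists had the opposite sign. Of these, MHC class I had -0.17, heat shock proteins -0.10, stem cell markers -0.08, D cyclins and inhibitors -0.02, interferon genes -0.02 and nuclear long noncoding RNAs 0.14, beside the endoplasmic reticulum list and the NRF2 list, at -0.03 and -0.02. The co-chaperone STIP1 had 1.48, the cytokine gene IL1B 1.22, the adhesion gene ICAM1 1.46 and the survival gene BCL2L1 1.03, with 0.90, 0.70, 0.37 and 0.53 in the overlapping range. CDKN2A, the cyclin kinase inhibitor p16, had 0.894 CPM in Control, 0.488 after radiation, 6.61 after QTP and 6.88 in the combination, under the level at which genes were counted. Of 35 receptors for dopamine and related amines only 3 reached 5 CPM. DRD2 had no UMI in Control, which allows up to 0.335 CPM, and 0.0777 CPM in the combination, and DRD4 had 0.224 and 0.431 CPM. HRH1, a histamine receptor, had 9.50 and 13.1 CPM. Metallothioneins and both lists of other cell types had fewer than 5 members as well.

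**Figure D4:**
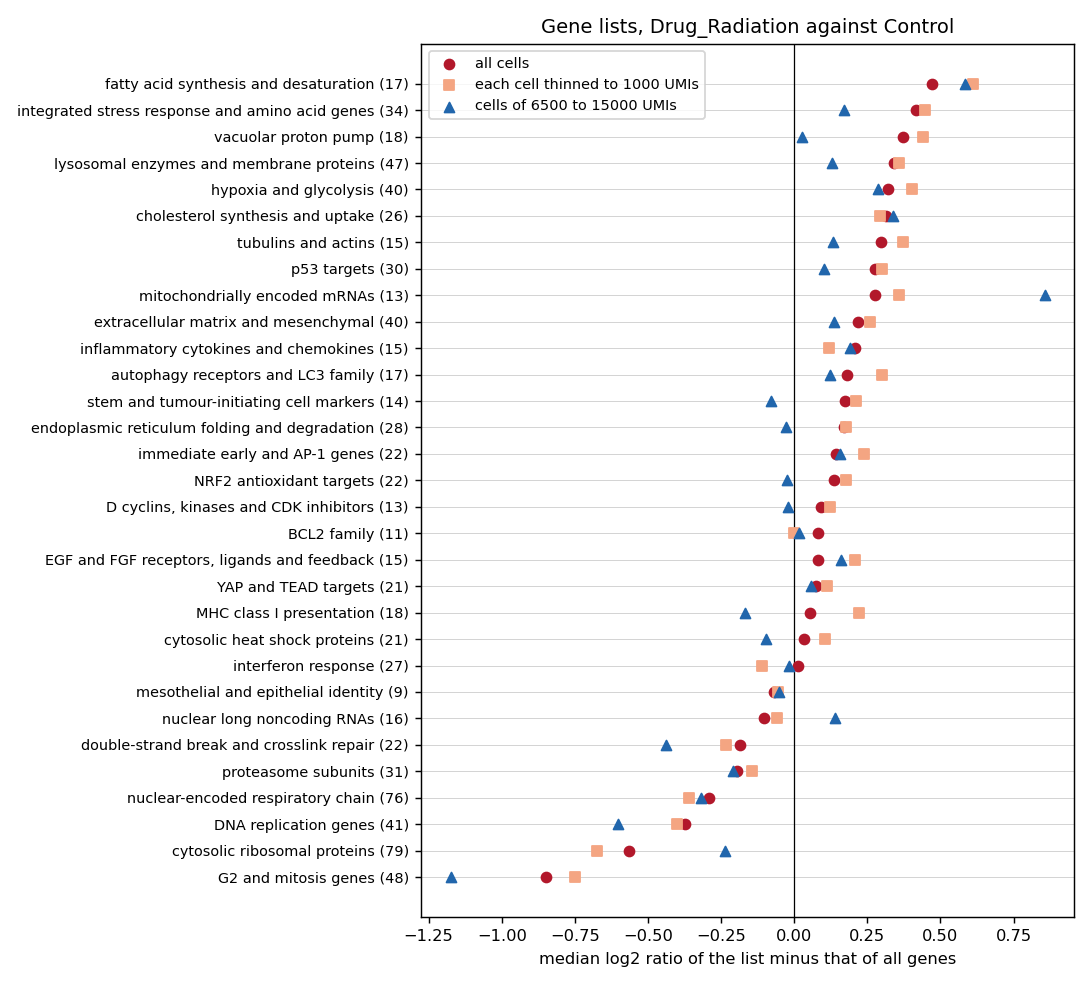
Each row is a gene list with its number of members, and the points give the median log2 ratio of the list minus that of all genes over all cells, with each cell thinned to 1000 UMIs, and in cells of 6500 to 15000 UMIs. G2 and mitosis genes lie lowest at -0.85 and fatty acid genes highest at 0.47 over all cells, and in the depth range the mitochondrial mRNAs lie highest at 0.86.

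A few genes were high in the combination and low in both single treatments. PLXDC1, a membrane protein named for tumour endothelium, had 1.90 CPM in Control, 1.40 after radiation, 1.28 after QTP and 45.6 in the combination, a ratio of 4.01 (3.90 to 5.37). TMEM108, a membrane protein of neurons, had 2.91, 2.16, 2.67 and 48.6 CPM, a ratio of 3.67 (3.51 to 4.68). Before thinning, each of these genes had a UMI in 55.4% of combination cells, and in at most 2.52% of the cells of any other library. The pair met in 2337 of the 3873 cells with PLXDC1, so TMEM108 was present in 60.3% of the cells with PLXDC1 and in 49.3% of the rest, and neither was limited to a small group of cells. These shares are also before thinning. Combination cells ran from 6244 to 141848 UMIs, and depth was not matched between cells with and without PLXDC1. Their levels over the depth ranges of the combination were 42.8 to 51.1 CPM for PLXDC1 and 46.4 to 56.0 CPM for TMEM108. PLXDC1 is on chromosome 17, from 39063303 to 39154394, and TMEM108 on chromosome 3, from 133038391 to 133397792.

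KIF5C-AS1, an antisense RNA, had 45.1 CPM in Control, 29.7 after radiation, 14.99 after QTP and 110 in the combination, a ratio of 1.27 (1.15 to 1.43), and the strand that was counted is not given in the sources used here. CSKMT, a mitochondrial methyltransferase, had 135, 66.6, 86.2 and 271 CPM, a ratio of 1.004 (0.93 to 1.09). The potassium channel KCNJ6 had 10.2, 6.49, 18.04 and 32.5 CPM, a ratio of 1.58. In these 3 genes Radiation lay below Control, and the combination was above both single treatments.

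Another set was high in both libraries with QTP. In this set ARF5, a small GTPase of the Golgi, had 11 UMIs in all of Control and 12 in Radiation, but 1.22 UMIs per cell in Drug and 1.37 in the combination. Its level was 1.23 CPM in Control and 67.7 in the combination. MYEOV, named for its overexpression in myeloma, had 1 UMI in Control and 3906 in the combination, where it was found in 33.8% of cells before thinning. The counting interval of its log2 ratio was 5.47 to 13.25. MXD3, a MAX-binding repressor, had 14.1 CPM in Control, 21.1 after radiation, 55.5 after QTP and 49.3 in the combination, a ratio of 1.74.

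**Figure D5:**
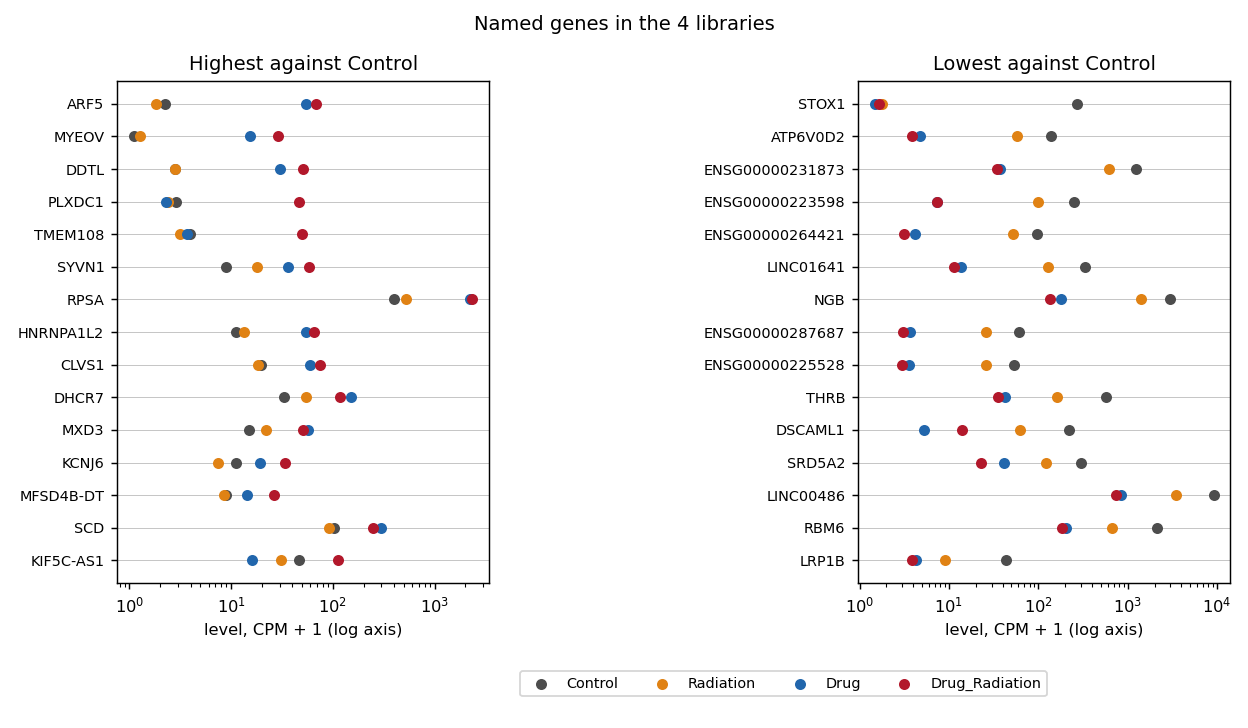
Points give the level (CPM plus 1, log axis) of the 15 genes highest and the 15 lowest against Control in each of the 4 libraries. PLXDC1 and TMEM108 are high in the combination alone, STOX1 is high in Control alone, and most of the lowest genes descend from Control through Radiation to both libraries with QTP.

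Most of the lowest genes were graded over the libraries, but STOX1 was high in Control alone. STOX1, a DNA-binding protein, had 267 CPM in Control but 0.768 in Radiation, 0.493 in Drug and 0.650 in the combination, a ratio of -7.34. A STOX1 UMI was found in 41.8% of Control cells, 0.454% of Radiation cells, 1.10% of Drug cells and 1.19% of combination cells, before thinning and although Control was the shallowest. STOX1 is on chromosome 10, from 68827541 to 68895432. STOX1 thus set Control apart from all 3 other libraries, and its ratio in any comparison with Control rests on that 1 library.

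NGB had 2944 CPM in Control, 1406 after radiation, 177 after QTP and 134 in the combination, a ratio of -4.45 (-4.48 to -4.43). The noncoding RNA LINC00486 had 9140, 3473, 834 and 748 CPM, a ratio of -3.61. The thyroid hormone receptor gene THRB had 575, 161, 41.8 and 34.1 CPM, a ratio of -4.03. All 3 descended from Control to Radiation to Drug to the combination. The order Control above Radiation above Drug held for 114 of the 127 lower genes (89.8%) and for 4.98% of all genes measured. The steroid reductase SRD5A2 (-3.73), the cell adhesion gene DSCAML1 (-3.99), the lipoprotein receptor LRP1B (-3.50) and the RNA-binding protein RBM6 (-3.51) belonged to the same set.

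The 127 lower genes shared features that their ratio did not choose. They included 37 genes not annotated as protein-coding (29.1%), against 3.34% of all genes measured and 3.20% of the higher ones. Their median span on the genome was 128 kb, against 28.2 kb for all and 19.5 kb for the higher genes, and 36.3% of them spanned over 200 kb, against 6.29% of all. Together they made up 48021 CPM in Control, 28090 after radiation, 9722 after QTP and 9073 in the combination. In UMIs per cell Control was the lowest, with 135, against 166 for Radiation, 223 for Drug and 184 for the combination. The set as a whole thus had more UMIs per combination cell but a smaller share of them. All genes measured had 2662 UMIs per Control cell and 18920 per combination cell, so UMIs per cell carry the depth of the library and do not measure RNA content. Fewer UMIs per combination cell than per Control cell were found for 50 of the 127 genes (39.4%). That held for 50 of all 5243 genes measured (0.954%) and for 0 of the 281 higher ones. NGB had 8.28 UMIs per Control cell and 2.72 per combination cell, and LINC00486 25.7 and 15.1. TXNRD1 had 4.97 and 12.4 UMIs per cell, the reverse of its order in CPM.

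These genes also moved with depth inside each library. In Control their summed level was 56349 CPM in cells of 1000 to 2000 UMIs and 38078 CPM in cells of 6500 to 15000 UMIs, and in the combination it went from 11953 to 8208 CPM. NGB went from 4054 to 1769 CPM in Control and from 214 to 101 CPM in the combination. At overlapping depth NGB thus still differed, with a ratio of -3.20 in cells of 6500 to 15000 UMIs. The RNA-binding protein RBFOX2 had a ratio of -2.28 over all cells and -1.04 in that range. The part of depth in these differences was not tested.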

How the data were processed

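Single-cell RNA-seq of 4 libraries was analysed from the raw UMI count matrices that the authors deposited. The submitters' processing notes name Seurat 4.3.3 and the build hg38 without saying for which step. For the aligner, the counter and the strand setting, nothing is given in the sources used here. Per the labels' protocols the kit was PIPseq V T2 3', while another label names 10x Genomics, which was not settled. A 3' kit counts transcript ends, so levels carry no gene length.

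Cells with under 20% mitochondrial UMIs were kept, no doublet caller was run, and UMIs were summed per library, with 1000000 as the CPM total. Genes with at least 20 CPM in either library were counted at 2-fold, and lists used members with at least 5 CPM. Ratios have exact conditional binomial intervals and shares exact Clopper-Pearson intervals, at 95% and for counting error only. Each group is 1 library, so no test was made.

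Named genes were the 15 highest and 15 lowest by their smallest ratio over all cells, thinned cells and cells of 6500 to 15000 UMIs, the 6 most beyond all other libraries in each direction, the 2 highest and 2 lowest of each list, and a fixed panel. Other genes named, among them RBFOX2, MSH3, PFKP, PKM and NPC1, were chosen after their values were seen. The members and lists were chosen with earlier results of these data known.

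Coordinates and gene types came from GENCODE release 29 and promoter windows from RefSeq GRCh38.p14. Alternatives covered thinning, depth range, scaling with edgeR 4.0.16 and DESeq2 1.42.0, and filters. Computation used Python 3.11.15, pandas 2.3.3, SciPy 1.17.1 and R 4.3.3. The scripts were tested on simulated data.

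Some results are not reported here.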

Additional observations from a re-analysis of the deposited data

How the results depend on the processing

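Against 281 genes 2-fold higher, there were 563 with each cell thinned to 1000 UMIs, 465 with equal weight per cell, 101 with TMM scaling, 98 with DESeq2 scaling, 510 at a minimum of 5 CPM, 123 at 50 CPM and 177 with ribosomal protein genes left out of the total, the last chosen after seeing the data. Against 127 genes 2-fold lower, there were 227 at a minimum of 5 CPM. Selection within cells of 6500 to 15000 UMIs moved these counts less, to 223 and 151, or 285 and 154 with those cells thinned to 6000. The median log2 ratio of all genes, 0.33, was 0.10 in cells of 6500 to 15000 UMIs, 0.11 in those cells thinned to 6000, 0.10 with TMM, 0.090 with DESeq2 and 0.21 without ribosomal protein genes. The share of S or G2/M cells, 3.86% in Control and 1.83% in the combination, was 5.40% and 2.63% at 500 UMIs, 2.89% and 0.750% in the depth range thinned to 6000, 14.6% and 7.997% at a threshold of 0.5%, 0.126% and 0.0572% at 2%, and 1.36% in the combination without thinning. Among genes named by the rule with a 2-fold difference and lists at least 0.2 from all genes, signs were opposite for CBS, at -0.21 in the depth range and -0.35 there thinned to 6000, for TUBB2B, at -0.11 and -0.43, and for the vacuolar proton pump list, whose relative median was -0.058 in the range thinned to 6000. Smaller values turned as well, such as TUBB4B and 8 of 31 lists in the depth range, and so did MSH3, which the rule did not name. The cause was not tested. No paired analysis was possible because each group has 1 library and the labels carry no replicate numbers. The 173 Control cells in the depth range limit its values.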
